A study of Mus musculus with 6 samples.

Results

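The genes described here are 10 components of the Notch pathway, namely the ligands Dll4, Jag1 and Jag2, the receptors Notch1, Notch2, Notch3 and Notch4, and the nuclear targets Hey1, Heyl and Hes1. They were taken by name from the 31053 genes of the count tables, not by their values, and all 10 were present in each of the 6 libraries. A further 51 genes of the pathway were followed as a list. The series holds 6 single-cell 3′ libraries of mouse lung, 1 per condition. Of these, 4 were made from sorted cells of pooled Cxcl12DsRed/+ lungs at E13.5, E15.5 and E18.5 and on postnatal day 8 (P8), and 2 from whole lungs at E18.5 that the labels give as a heterozygous control (Cxcl12DsRed/+) and a homozygous null (Cxcl12DsRed/DsRed). In these animals the DsRed reporter was knocked into the Cxcl12 gene, so every sorted library came from lungs with 1 intact Cxcl12 copy, and no wild-type lung was sampled. Sorted cells were positive for the reporter and for CD31 and negative for CD45 and EpCAM, and reporter-positive cells without CD31, which are enriched in mesenchyme, were collected beside them. With 1 library per condition there was no replicate and no test, and every interval printed covers counting error only.

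Notch receptors are cut after they bind a ligand on a neighbouring cell, and the freed intracellular part enters the nucleus, joins the DNA-binding protein Rbpj and switches on genes of the Hes and Hey families. Dll4 and Jag1 are the best known ligands of blood vessels, Notch1 and Notch4 the main receptors of endothelial cells (ECs), and Notch3 the receptor of mural cells such as pericytes and smooth muscle. In developing vessels the pathway is known for the choice between arterial and venous identity, for restraining sprouting, and for recruiting the mural coat.

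Positions below refer to GRCm38 and are whole-gene spans. Dll4 (ENSMUSG00000027314) lies on chromosome 2 from 119325784 to 119335962, Jag1 (ENSMUSG00000027276) on chromosome 2 from 137081456 to 137116644, and Jag2 (ENSMUSG00000002799) on chromosome 12 from 112907819 to 112929776. Notch1 (ENSMUSG00000026923) spans 26457903 to 26516663 on chromosome 2, Notch2 (ENSMUSG00000027878) 98013527 to 98150361 on chromosome 3, Notch3 (ENSMUSG00000038146) 32120820 to 32166852 on chromosome 17, and Notch4 (ENSMUSG00000015468) 34564268 to 34588503 on chromosome 17. Hey1 (ENSMUSG00000040289) spans 8663359 to 8667256 on chromosome 3, Heyl (ENSMUSG00000032744) 123233556 to 123249875 on chromosome 4, and Hes1 (ENSMUSG00000022528) 30064384 to 30067796 on chromosome 16. Exons of Dll4, Notch1 and Notch3 overlap genes on the opposite strand, and exons of Notch2 overlap Gm42820 on the same strand. Stretches of 60 bases were taken every 30 bases from the last 300 bases of these transcripts, and none had an exact match in a transcript of another gene.

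The bases before 3 gene starts are shown because the results turn on these genes. Jag1 was called at 3 of the 4 EC marker limits used below, Hey2 (ENSMUSG00000019789), a relative of Hey1 from the wider list, was higher in the same Eln-marked ECs, and Dll4 stood higher in later than in earlier ECs. Each sequence is the 250 bases before the start, 5′ to 3′ on the gene's strand, from RefSeq for GRCm38.p6. The RefSeq starts of Jag1 and Hey2 lie within the whole-gene spans, so both windows overlap the spans of their genes. Capitals mark the letters TGGGAA or, on the other strand, TTCCCA, the core of the Rbpj motif.
Jag1, chr2:137116521-137116770, minus strand: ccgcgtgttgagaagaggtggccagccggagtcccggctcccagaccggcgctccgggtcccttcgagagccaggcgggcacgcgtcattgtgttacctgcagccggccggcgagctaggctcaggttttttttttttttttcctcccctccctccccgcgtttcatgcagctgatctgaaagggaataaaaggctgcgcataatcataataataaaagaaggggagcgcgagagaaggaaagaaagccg
Hey2, chr10:30842784-30843033, minus strand: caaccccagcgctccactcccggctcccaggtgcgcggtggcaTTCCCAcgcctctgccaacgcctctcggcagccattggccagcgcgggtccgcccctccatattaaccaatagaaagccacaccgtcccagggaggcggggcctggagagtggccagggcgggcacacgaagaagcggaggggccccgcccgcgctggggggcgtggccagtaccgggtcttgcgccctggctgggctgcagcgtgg
Dll4, chr2:119325534-119325783, plus strand: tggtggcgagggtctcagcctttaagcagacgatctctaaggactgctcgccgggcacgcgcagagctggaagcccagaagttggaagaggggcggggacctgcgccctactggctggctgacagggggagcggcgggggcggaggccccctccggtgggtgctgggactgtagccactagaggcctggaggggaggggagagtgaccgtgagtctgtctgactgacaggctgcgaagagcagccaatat
These letters stood once in the Hey2 window, 207 bases before the start. They were in 0 of the 7 member windows that RefSeq matched, while 21.6% of 32851 mouse promoter windows of the same length held them. The nuclear targets Hey1, Heyl and Hes1 had no window in the set used, so the count covers ligands and receptors only.

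A cell was taken as an EC when it held at least 2 UMIs (unique molecule tags) of Pecam1 and Cdh5 together, both junction genes of endothelium. This gave 210 ECs at E13.5, and 9453, 9119 and 8259 in the later sorted libraries in order of age, and 3042 and 2022 in the whole lungs labelled null and control. Levels are summed UMIs of a gene per 1000000 UMIs of the cells (CPM), with exact 95% Poisson intervals. The tags come from 3′ ends, so levels of the same gene were compared between cells, and levels of different genes were not. Libraries held 63746333 to 117522172 UMIs, and pairs of libraries shared 20 to 140 cell barcodes, the most between both whole lungs. The genotype labels of the whole lungs went against the data. In ECs, Cxcl12 stood at 4.24 CPM in the library labelled control and at 498.9 CPM in the library labelled null, and the names of the deposited whole-lung tables also give the opposite genotypes. Both are therefore called by their label, and no direction of a genotype effect is drawn.

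ECs carried a distinct share of the pathway compared with the other cells of the same sort. The ligands Dll4 and Jag2, the receptors Notch1 and Notch4 and the target Hey1 were higher in ECs, and Notch2, Notch3 and Heyl were lower, in all 3 libraries from E15.5 to P8. The comparison was with cells that held no UMI of Pecam1 or Cdh5 (1888, 297 and 95 cells in order of age). Called here means a ratio of CPM of at least 2-fold in the same direction in every library. By this rule 5 of the 10 genes were higher in ECs, where 6.86% of the 8716 genes tested were, and 3 were lower, where 7.94% were. Notch2, Notch3 and Heyl reached the minimum mean of 10 CPM only through the other cells, and Dll4, Jag2 and Notch4 only through ECs, so that these 6 genes had to differ and the counts are a description.

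Dll4 stood at 63.1, 164 and 202 CPM in ECs at E15.5, E18.5 and P8, and at 1.17, 6.57 and 14.5 CPM in the cells without EC markers. Jag2, another ligand of the Jagged family, stood at 66.8, 86.2 and 44.9 CPM in ECs and at 2.21, 3.46 and 6.46 CPM in the other cells. The log2 ratios of EC over other cells were 5.25, 4.54 and 3.75 for Dll4 and 4.63, 4.45 and 2.70 for Jag2, so the level of both ligands was far higher in ECs. The other cells numbered 95 at P8, with 618756 UMIs, and their endothelial markers summed to 38.7, 124.55 and 263.4 CPM in order of age. The part of EC RNA in their levels was not tested. Jag1 was less separated, with 132.5, 92.7 and 29.2 CPM in ECs and 75.7, 45.0 and 11.3 CPM outside. Its log2 ratios of 0.80, 1.03 and 1.33 did not reach 2-fold at E15.5.

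Among the receptors, Notch1 stood at 125, 186 and 202 CPM in ECs against 28.0, 48.4 and 45.3 CPM in the other cells, and Notch4 at 55.9, 78.9 and 90.6 CPM against 2.47, 4.84 and 16.2 CPM. Notch3 showed the reverse, with 5.995, 1.36 and 0.761 CPM in ECs against 59.0, 94.8 and 30.7 CPM. Notch2, a receptor used by many non-endothelial cells, stood at 2.76, 2.21 and 1.88 CPM in ECs against 36.6, 25.6 and 19.4 CPM. The endothelial pair and the other pair of receptors thus lay in opposite directions in all 3 libraries.

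Of the targets, Hey1 reached 120, 314 and 223 CPM in ECs and 20.4, 21.8 and 27.5 CPM in the other cells. Heyl, the family member known from mural cells, followed Notch3, with 2.60, 1.28 and 0.713 CPM in ECs and 57.1, 98.9 and 27.5 CPM outside. Hes1, which many signals besides Notch can switch on, was present on both sides at 256, 446 and 513 CPM in ECs and 173, 197 and 149 CPM outside, with log2 ratios of 0.56, 1.18 and 1.78. In the wider list 9 of 39 genes tested were higher in ECs (Ccnd1, Efnb2, Egfl7, Fbxw7, Gata2, Lfng, Mfng, Numb and Sox17) and 3 were lower (Dlk1, Mfap5 and Numbl). Of these, Gata2, Lfng and Mfng reached the minimum mean only through ECs and Numbl only through the other cells, so these counts too are a description. Mfng, a sugar transferase that modifies the receptors, stood at 133.2, 147.2 and 166.3 CPM in ECs and at 2.08, 5.19 and 9.70 CPM outside. Rbpj, the nuclear partner of all 4 receptors, was counted at 36.6, 39.4 and 34.9 CPM in ECs and at 56.7, 64.7 and 61.4 CPM outside.

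**Figure D1:**
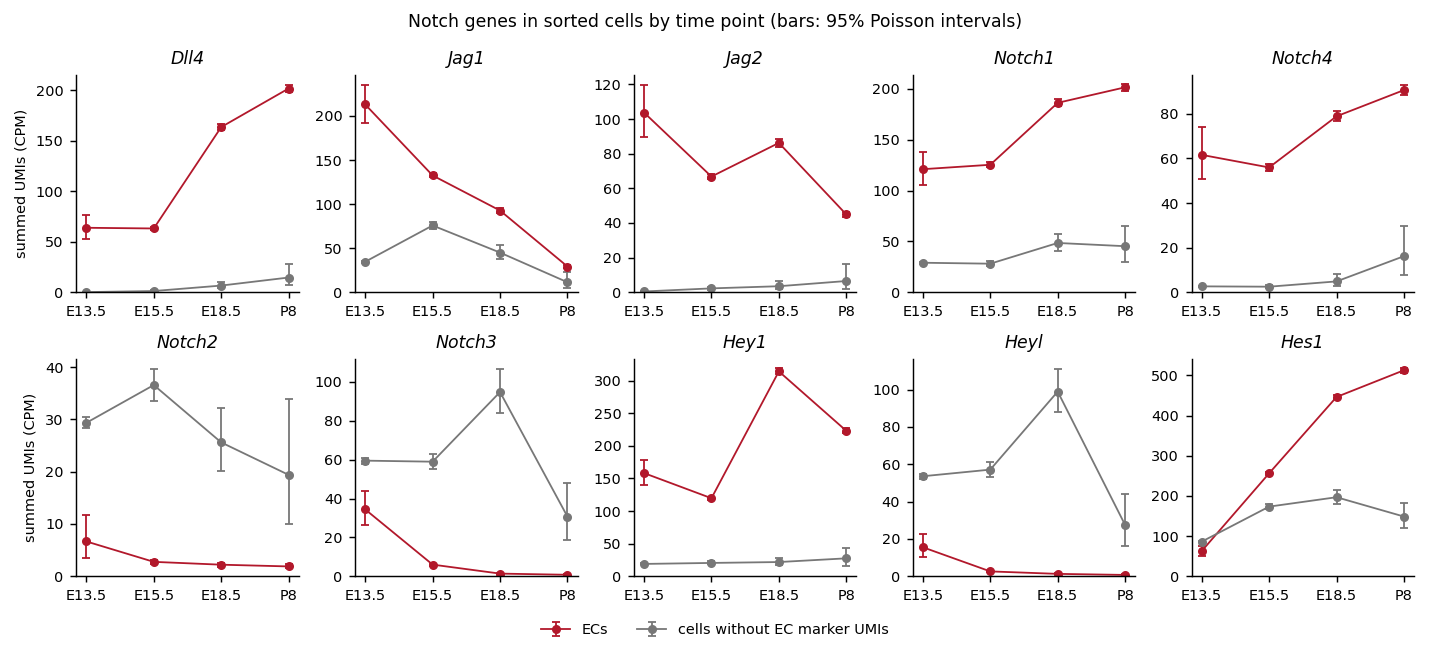
Levels of the 10 Notch pathway genes in CPM over the 4 sorted time points (1 library each), in ECs (red) and in cells without a UMI of Pecam1 or Cdh5 (grey), with exact 95% Poisson intervals. Dll4, Jag2, Notch1, Notch4 and Hey1 lie higher in ECs at every time point, and Notch2, Notch3 and Heyl lie higher in the other cells.

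Across the sorted time course, the Dll4 and Hey1 levels of ECs rose from E15.5 to E18.5, and the Jag1 level fell from E18.5 to P8. Dll4 stood at 63.8 CPM (interval 52.7 to 76.6) at E13.5, 63.1 CPM (61.5 to 64.7) by E15.5, 164 CPM (160.3 to 167) just before birth at E18.5, and 202 CPM (198 to 205) in P8 ECs. It was alike at both early time points within counting error and higher at both later ones. Jag1 ran the other way, with 213 CPM (192 to 236), 132.5 CPM (130.2 to 135), 92.7 CPM (90.3 to 95.2) and 29.2 CPM (27.8 to 30.6) in order of age, and no intervals overlapped. Jag2 had 104, 66.8, 86.2 and 44.9 CPM in the same order and no steady course.

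Notch1 stood at 121, 125, 186 and 202 CPM and Notch4 at 61.6, 55.9, 78.9 and 90.6 CPM. Both endothelial receptors were thus higher at E18.5 and P8 than before, by less than 2-fold at each step. Hey1 had 158, 120, 314 and 223 CPM and was highest at E18.5. Hes1 had 62.7, 256, 446 and 513 CPM, the order of the time points. The ECs at E13.5 held 15.5 CPM of Heyl and 34.4 CPM of Notch3, more than any later ECs, and they came from a library in which 12361 of 12726 cells had no EC marker UMI and in which those cells held 53.6 and 59.5 CPM of the same genes. The part of such cells' RNA in the E13.5 values was not tested.

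From E15.5 to E18.5 the log2 ratio was 1.37 (1.33 to 1.42) for Dll4 and 1.39 (1.36 to 1.43) for Hey1, and these 2 of 7 genes tested passed the 2-fold limit upwards, where 8.29% of 8094 genes did. None passed it downwards, where 4.25% did, and the ratio was -0.51 for Jag1, 0.37 for Jag2, 0.57 for Notch1, 0.49 for Notch4 and 0.80 for Hes1. From E18.5 to P8 only Jag1 of the 7 passed the limit, at -1.65 (-1.75 to -1.59), where 3.67% of 8149 genes fell and 3.74% rose. The other ratios of this step were -0.93 for Jag2, -0.49 for Hey1, 0.30 for Dll4, 0.20 for both Notch4 and Hes1, and 0.11 for Notch1. Notch2, Notch3 and Heyl were under the minimum mean of 10 CPM in ECs and were not tested. In the wider list 4 of 39 genes rose and 3 fell from E15.5 to E18.5. Those that rose were Efnb2, an arterial membrane ligand (167.1 to 337.4 CPM), Gata2, a transcription factor of endothelium and blood (49.7 to 152.5 CPM), Maml3, a partner of the nuclear complex (15.5 to 34.9 CPM), and Numb, which damps the receptor (64.4 to 130.5 CPM). Those that fell were Hey2 (15.8 to 6.72 CPM), Mfap5, a microfibril protein (52.4 to 24.9 CPM), and the growth regulator Myc (19.7 to 7.05 CPM). Hey2 and Myc here, and both falls named next, reached the minimum mean through the earlier time point alone. From E18.5 to P8, Nrarp, a feedback inhibitor that Notch itself switches on, rose from 55.4 to 161.9 CPM, a log2 ratio of 1.54, while Mfap5 fell to 5.38 CPM and Dlk1, a non-canonical ligand, from 43.4 to 0.0810 CPM. In the cells without EC markers Dlk1 stood at 1962 and 2002 CPM before birth (E15.5, E18.5) and at 1.62 CPM after it (P8), and the part of their RNA in the EC level was not tested. Without ECs with UMIs of other classes, Dlk1 stood at 4.48 CPM in E18.5 ECs and 0.0821 CPM in P8 ECs, and Mfap5 at 8.68 and 2.71 CPM. Both were then under the minimum mean and not tested, while the log2 ratios were -3.10 and -1.51.

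ECs of each library were then split by 4 genes that mark vessel segments. Eln encodes elastin and marks large arteries, Gja4 a gap-junction protein of arterial endothelium, Gpihbp1 the lipase anchor of general capillaries, and Car4 a carbonic anhydrase of the alveolar capillary cells called aerocytes. The limits were at least 10 UMIs of Eln and at least 2 of each of the others. At E15.5, E18.5 and P8 the Eln limit was reached by 1513, 803 and 398 ECs, the Gja4 limit by 7163, 5954 and 6363, the Gpihbp1 limit by 2630, 4200 and 6079, and the Car4 limit by 10, 852 and 1783. The groups overlapped. Of the ECs over the Gja4 limit, 35.9% at E18.5 and 75.0% at P8 were also over the Gpihbp1 limit, and of those over the Eln limit, 92.3% and 88.9% were also over the Gja4 limit. Exclusive groups were therefore formed as well, in the order Eln, Gja4, Car4, Gpihbp1 and none of these. The ECs over the Eln limit were also high in venous markers, which summed to 548, 759 and 1150 CPM at E15.5, E18.5 and P8. In all ECs these markers summed to 190, 331 and 229 CPM. The vessel type of the ECs over the Eln limit was not tested. At E13.5, 192 of the 210 ECs were over the Gja4 limit, 47 over the Eln limit and 4 over the Gpihbp1 limit, and this library was kept out of the calls. In what follows, values in order of age are those of E15.5, E18.5 and P8.

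Jag1 was the only member called higher in the ECs marked by Eln. In E15.5 ECs it stood at 323 CPM over the Eln limit and 98.5 CPM under it, in E18.5 ECs at 355.5 over and 55.3 CPM under it, and in P8 ECs at 134 over and 22.3 CPM under it. The log2 ratios were 1.71 (1.66 to 1.76), 2.67 (2.61 to 2.76) and 2.56 (2.44 to 2.74). Jag1 was 1 of 7 genes tested that were called higher, where 3.28% of 8269 genes were. None was called lower, where 1.52% were. At E13.5, with 47 ECs over the limit, Jag1 had 257.8 and 198.2 CPM over and under it, a smaller log2 ratio of 0.38 (0.05 to 0.70), and Hey2 62.2 and 19.2 CPM, a ratio of 1.67 (0.87 to 2.52).

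Dll4, the other main vascular ligand, did not follow Eln. Over the limit it had 58.3, 79.1 and 201.9 CPM in order of age, and under it 64.0, 175.6 and 201.7 CPM. It was thus lower in the Eln group at E18.5 and nearly equal at E15.5 and P8. Hey1 had 125, 152 and 268 CPM over the limit and 119, 337 and 220 CPM under it, again lower in the Eln group at E18.5 alone, with log2 ratios of 0.07, -1.15 and 0.29. The log2 ratios of Hes1 were -0.40, -1.06 and -0.37, those of Jag2 -0.05, 0.66 and -0.08, those of Notch1 -0.09, -0.29 and 0.10, and those of Notch4 0.14, 0.10 and -0.02. The median of the 7 genes was -0.09, against -0.02 over all genes tested.

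From the wider list, Hey2 went with Jag1. Over the Eln limit it stood at 74.4, 45.4 and 35.0 CPM and under it at 5.31, 1.22 and 2.18 CPM, log2 ratios of 3.69, 4.74 and 3.73. Hey2 reached the minimum mean only through the Eln group, so its call is a description. Mfap5, whose product can bind Jag1, was called higher too, with 291.7, 132.2 and 76.8 CPM over the limit and 9.72, 9.69 and 0.656 CPM under it, and it too was tested only through the Eln group. Ccnd1, a cell cycle gene and target of several pathways, was the list's only lower gene among 39 tested, with 48.2, 44.0 and 123.0 CPM over the limit and 172.1, 305.0 and 369.4 CPM under it.

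The ECs over the Eln limit also held more UMIs of other cell classes. At E15.5, E18.5 and P8, 31.3%, 14.3% and 10.3% of them carried 3 or more UMIs of 7 mesenchymal, epithelial and immune genes. A list of 6 smooth muscle markers summed to 1237, 647.5 and 322.1 CPM over the limit and to 34.1, 14.1 and 22.3 CPM under it, with 6 of 6 markers higher and none at 0. A list of 6 mesenchymal markers summed to 1446, 634.4 and 233.5 CPM over the limit and 146.8, 63.6 and 10.7 CPM under it, with 6 of 6 higher. A list of 8 pericyte markers summed to 60, 65.6 and 22.2 CPM over the limit and 21.8, 39.4 and 24.5 CPM under it, so at P8 it was slightly lower over the limit. Of these 8 markers 5, 7 and 4 were higher, with Higd1b at 0 at E15.5 and Cspg4 at 0 at P8. Without the ECs that carried such UMIs, the Jag1 log2 ratios were 2.07, 2.88 and 2.58, with 421.2, 415.2 and 136.1 CPM over the limit, and those of Hey2 were 4.03, 4.87 and 3.54. The smooth muscle list then still summed higher over the limit, to 237.2, 77.8 and 78.3 CPM against 18.7, 12.2 and 19.8 CPM under it, with 6, 3 and 3 of 6 markers higher, with Cnn1 and Des at 0 at E18.5 and Myh11 and Cnn1 at 0 at P8. The mesenchymal list summed to 59.5, 16.1 and 11.7 CPM over the limit and 22.5, 10.2 and 5.58 CPM under it, and the pericyte list to 12.5, 17.5 and 10.2 CPM over it and 15.8, 35.8 and 17.1 CPM under it. Col1a1, Col1a2 and Col3a1 of the mesenchymal list were also among the 7 genes by which cells were left out. The fall of that list was therefore partly fixed by the rule. The Jag1 and Hey2 differences were thus larger at E15.5 and E18.5 and close to the first values at P8. In the Eln group, Notch3 dropped from 19.7 to 13.1 CPM, from 7.62 to 0.998 CPM and from 4.44 to 3.29 CPM when these cells were left out, and Heyl from 13.6 to 3.34 CPM, from 7.62 to 0.832 CPM and from 3.396 to 1.79 CPM. The log2 ratios went from 2.31 to 1.89, 3.06 to 0.86 and 2.28 to 2.42 for Notch3, and from 3.65 to 2.06, 3.21 to 0.75 and 1.91 to 1.41 for Heyl. Without these cells the ratios were 0.18, -1.04 and 0.10 for Dll4, 0.33, -1.02 and 0.42 for Hey1, and 0.30, 0.89 and -0.05 for Jag2. They were 0.36, 0.26 and 0.09 for Notch4, -0.03, -0.25 and 0.14 for Notch1, and -0.47, -1.07 and -0.32 for Hes1. Dll4 at E15.5 thus changed from slightly lower to slightly higher over the limit.

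At the Gja4 limit 6 of the 7 members, all but Hes1, had ratios above 0 at both E15.5 and E18.5, and at P8 these were lower for each but Hey1. In all, 0 of the 7 members passed 2-fold in every library, where 0.429% of 8151 genes were called higher and 0.0981% lower. Hey1 came nearest. Over the limit it had 153.2, 373 and 244.2 CPM in order of age, and under it 21.6, 188.5 and 118.8 CPM. Its log2 ratios were 2.80, 0.98 (0.93 to 1.04) and 1.04. Jag1 had 166.6, 127.8 and 30.3 CPM over the limit and 33.2, 17.8 and 23.6 CPM under it, so that the ratios of 2.31 and 2.81 before birth were followed by 0.36 at P8. Dll4 had 75.0, 188 and 205.1 CPM over the limit and 28.6, 111.5 and 185.4 CPM under it, with log2 ratios of 1.38, 0.75 and 0.15. The log2 ratios were 1.28, 0.86 and -0.03 for Jag2, 0.79, 0.82 and 0.30 for Notch1, 0.97, 0.59 and 0.08 for Notch4, and 0.41, -0.39 and 0.04 for Hes1. At P8, when most ECs over the Gja4 limit were also over the Gpihbp1 limit, Hey1 was the only gene of the 7 at 2-fold. The median of the 7 was 0.70, against 0.02 over all genes tested.

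ECs over the Gpihbp1 limit were low in Jag1. In order of age they held 28.1, 23.2 and 17.0 CPM, against 188.8, 167.4 and 81.3 CPM in the other ECs, log2 ratios of -2.73, -2.83 and -2.23. Jag1 was the 1 gene of 7 called lower, where 1.68% of 8158 genes were, and 0 were called higher, where 0.257% were. Hey1 had log2 ratios of -1.20, -0.21 and -0.61, Dll4 of -0.60, -0.39 and -0.32, and Hes1 of -0.06, 0.29 and 0.03. From the wider list Ccnd1 was called higher, at 256.5, 401.5 and 400.6 CPM against 97.7, 133.9 and 155.5 CPM, and Mfap5, tested only through the ECs under this limit, was called lower.

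Over the Car4 limit both Jag1 and Hey1 were low. Because 10 ECs reached this limit at E15.5, the comparison rests on E18.5 and P8. At these ages Jag1 had 18.5 and 12.5 CPM over the limit and 102.5 and 37.7 CPM under it, and Hey1 had 151.5 and 104.9 CPM over the limit and 335.6 and 282.8 CPM under it. The log2 ratios were -2.44 and -1.56 for Jag1 and -1.15 and -1.43 for Hey1. Over 3 libraries these 2 of 7 genes were called lower, where 1.3% of 8097 genes were, and 0 were called higher, where 0.173% were. Both were also past 2-fold at E18.5 and P8 alone. For that looser rule the share of all genes was not counted. Dll4 was lower by less, with 101.1 and 149.5 CPM over the limit and 171.8 and 228.3 CPM under it, while Hes1 had 616.3 and 522.4 CPM over and 423.9 and 508.3 CPM under it. Hey1 and Hes1 therefore went apart in these cells at E18.5. In the whole lungs of that age, with 57 and 204 ECs over the Car4 limit in the libraries labelled control and null, Jag1 had log2 ratios of -2.48 (-4.47 to -1.23) and -1.69 (-2.166 to -1.298), and Hey1 had -0.29 (-0.60 to 0.00103) and -0.99 (-1.17 to -0.82), both short of 2-fold. Against the ECs over none of the limits, the exclusive Car4 group gave 0 genes called lower over the 3 libraries, which rests on its 8 cells at E15.5 (Jag1 30.8 against 22.9 CPM, Hey1 41.0 against 21.2 CPM). At the later ages both genes stayed more than 2-fold lower there, with 7.48 and 7.74 CPM of Jag1 against 31.4 and 62.8 CPM, and 99.5 and 45.3 CPM of Hey1 against 224.3 and 202.6 CPM. The ECs over none of the limits are a shallow group and by their markers not of 1 vessel type, as described below.

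**Figure D2:**
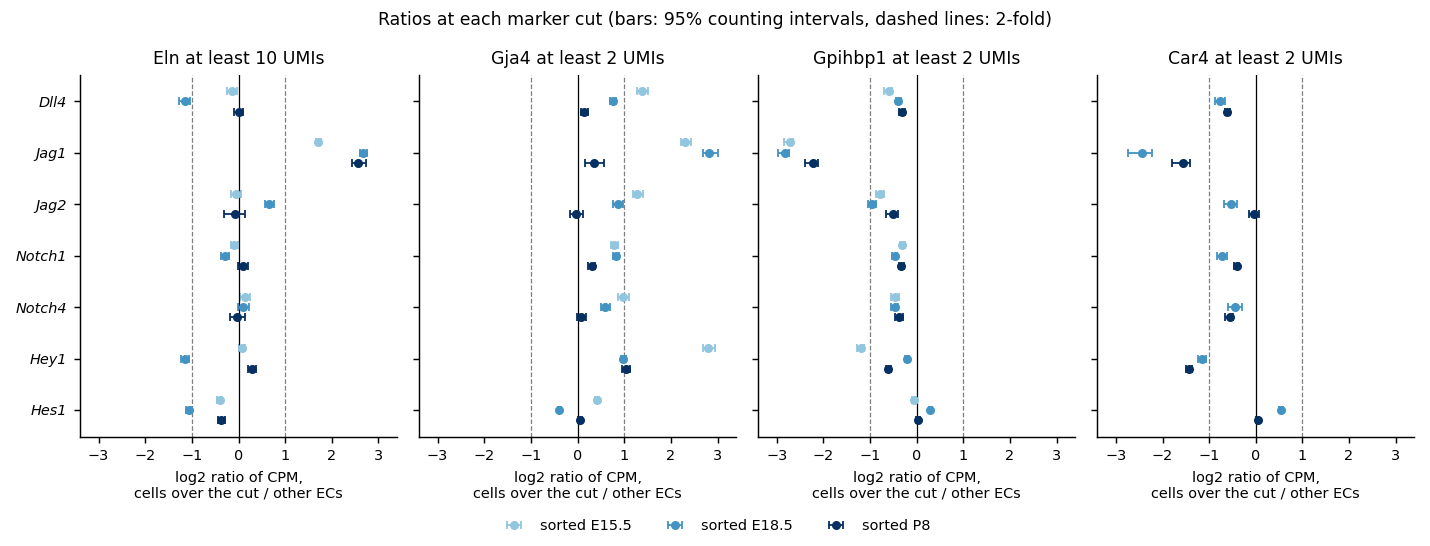
Log2 ratios of CPM between ECs at or over each of 4 marker limits and the other ECs of the same library, for 7 genes at E15.5, E18.5 and P8, with exact conditional binomial intervals at 95% and dashed lines at 2-fold. Jag1 lies beyond 2-fold upwards for Eln and downwards for Gpihbp1 in all 3 libraries, and the Car4 ratio at E15.5 is left out because it rests on 10 cells.

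The exclusive Gja4 group is not purely arterial by its markers. It held Gpihbp1 at 120.4, 379.6 and 1011 CPM in order of age, against 141.7, 440.0 and 962.7 CPM in all ECs, so at P8 it was no lower in this capillary gene than the whole. In the exclusive groups the Jag1 level was graded. In order of age it was 323, 355 and 134 CPM in the Eln group, 131, 78.4 and 23.3 CPM in the Gja4 group, and 8.85, 8.62 and 15.4 CPM in the Gpihbp1 group. In the Car4 group the E18.5 level was 7.48 CPM and the P8 level 7.74 CPM. ECs over none of the limits had 22.9, 31.4 and 62.8 CPM, and these cells were shallow, with a median of 4019 UMIs at E18.5 and 2591 at P8. At these ages their lymphatic markers summed to 850.7 and 237.8 CPM, against 259.0 and 43.4 CPM in all ECs. Their venous markers summed to 223.5 and 421.4 CPM, against 331.4 and 229.1 CPM. Cxcl12 stood at 371 and 1451 CPM in them, against 1210 and 1115 CPM in all ECs.

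Dll4 had another order. It was 58.3, 78.0 and 27.5 CPM in the Eln, Gja4 and Gpihbp1 groups of E15.5, 79.1, 209 and 114 CPM in those of E18.5, and 201.9, 204.8 and 204.9 CPM in those of P8. The Gja4 group was thus highest of these 3 before birth, and at P8 the 3 were within counting error of each other, above the Car4 group at 144.5 CPM. The ECs over none of the limits had 27.4, 146.6 and 278.7 CPM of Dll4 in order of age, the highest of the 5 groups at P8. Hey1 followed Dll4 before birth, with 125, 157 and 17.5 CPM at E15.5 and 152, 414 and 219 CPM at E18.5. At P8 it had 268, 242 and 163 CPM and 45.3 CPM in the Car4 group. Hes1 had yet another order at E18.5, from 228.5 CPM in the Eln group through 442 and 502 CPM in the Gja4 and Gpihbp1 groups to 666 CPM in the Car4 group. At P8 its values of 403.5, 524, 479 and 551 CPM lay closer together.

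Jag2 stood highest in the Gja4 group at E15.5 (80.8 CPM, against 64.8 in the Eln and 30.6 in the Gpihbp1 group) and highest in the Eln group at E18.5 (127.5 CPM, against 93.9 and 49.4). The 3 values at P8 were 42.6, 44.9 and 38.6 CPM. In order of age, Notch1 had 119, 156 and 215 CPM in the Eln group, 144, 228 and 207 CPM in the Gja4 group, and 80.7, 121 and 167 CPM in the Gpihbp1 group. Notch4 had 60.8, 83.9 and 89.3 CPM, then 64.2, 88.4 and 91.4 CPM, then 32.1, 60.5 and 95.3 CPM in the same groups. Both receptors were lower in the Gpihbp1 than in the Eln and Gja4 groups before birth, and at P8 this held for Notch1 and not for Notch4. At P8 the 333 ECs over none of the limits were above these groups, with 278.7 CPM of Notch1, 150.3 CPM of Notch4 and 78.0 CPM of Jag2. Hey2 had 74.4, 45.4 and 35.0 CPM in the Eln group and 7.11, 1.67 and 2.31 CPM in the Gja4 group, so it was far lower in the latter at each age.

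**Figure D3:**
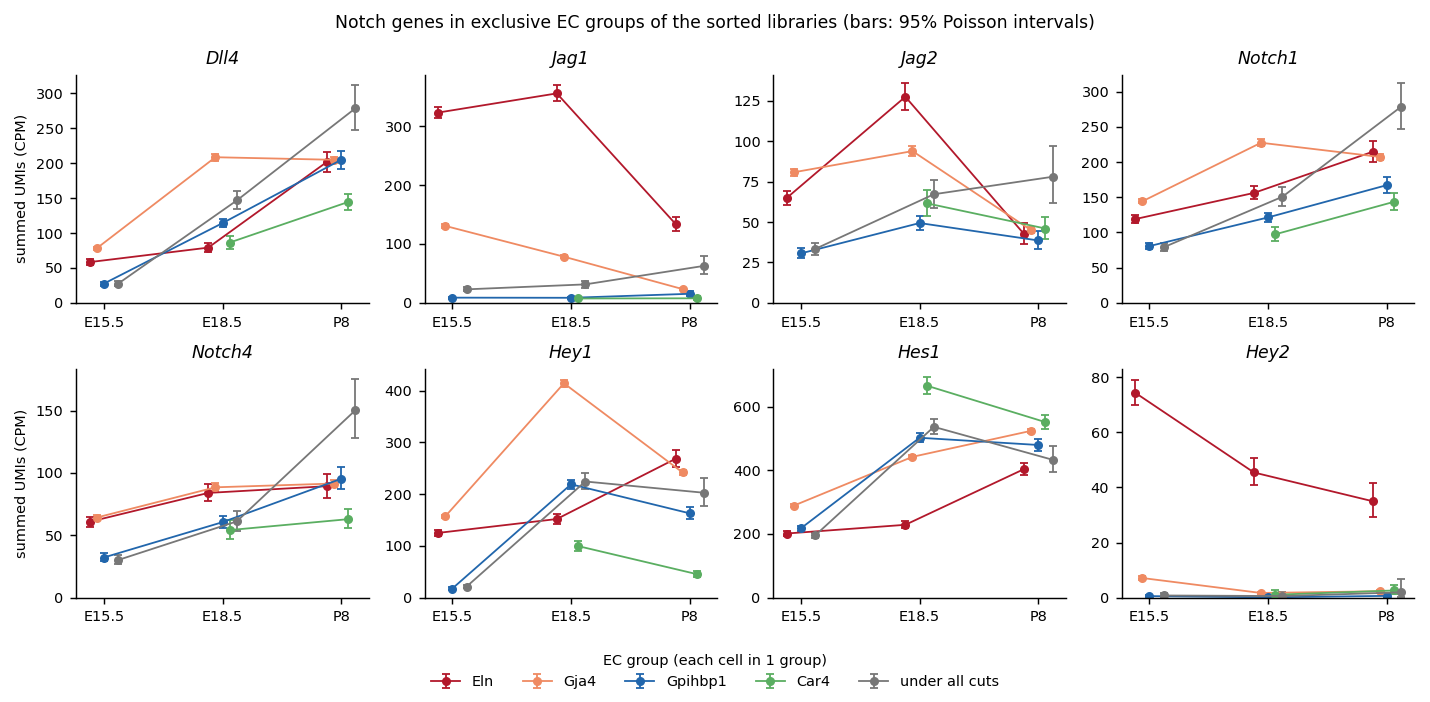
Levels of Dll4, Jag1, Jag2, Notch1, Notch4, Hey1, Hes1 and Hey2 in CPM in the 5 exclusive EC groups at E15.5, E18.5 and P8, 1 library per time point, with exact 95% Poisson intervals and without the Car4 group at E15.5. Jag1 and Hey2 are highest in the Eln group at each time point, and Dll4 in the Gja4 group, highest of the 3 marked groups before birth, is level with the Eln and Gpihbp1 groups at P8.

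The changes over time were not the same in each group. From E15.5 to E18.5, the log2 ratio of Dll4 was 0.44 in the Eln group, 1.41 in the Gja4 group and 2.04 in the Gpihbp1 group, and that of Hey1 was 0.28, 1.40 and 3.61. The rise of both genes over all ECs was thus present in the Gja4 and Gpihbp1 groups and under 2-fold in the Eln group. ECs over none of the limits had ratios of 2.40 for Dll4 and 3.37 for Hey1, and 60.2% of them were cycling at E15.5 and 11.5% at E18.5. Hey1 in the Gpihbp1 group went from 17.5 to 219 CPM. The share of cycling cells moved with this rise, from 64.3% to 19.2% in the Gpihbp1 group and from 36.5% to 9.09% in all ECs. Without cycling cells, Hey1 in the Gpihbp1 group stood at 29.0 and 243.7 CPM, a log2 ratio of 3.05 (2.78 to 3.38), and the ratio was 1.15 in the Gja4 group, 0.11 in the Eln group and 1.01 (0.97 to 1.05) in all ECs. The Dll4 ratios were then 1.63, 1.27 and 0.36 in the Gpihbp1, Gja4 and Eln groups. From E18.5 to P8, Jag1 had log2 ratios of -1.40 in the Eln group and -1.73 in the Gja4 group, and of 0.80 in the Gpihbp1 group and 0.05 in the Car4 group, where it was low at both ages. Its fall over all ECs was therefore seen within the Eln and Gja4 groups, the latter with a rising level of Gpihbp1. In the ECs over none of the limits Jag1 was higher at P8, with a ratio of 0.99 (0.54 to 1.45). In the Eln group Dll4 went from 79.1 to 201.9 CPM (1.35) and Hey1 from 152 to 268 CPM (0.82), while in the Gja4 group the ratios were -0.03 and -0.78. Nrarp was higher at P8 in every group, with log2 ratios of 2.78, 1.22, 1.92 and 1.81 in the Eln, Gja4, Gpihbp1 and Car4 groups. Differences between groups in these ratios were not tested.

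Ligand and target UMIs were also compared cell by cell in the exclusive Gja4 group, after each cell was thinned to 2000 UMIs. A Hey1 UMI was found in 31.2% (28.2 to 34.4) of the 897 cells with a Dll4 UMI and 24.7% (23.5 to 25.9) of the 4960 without one at E15.5. At E18.5 the shares were 60.75% (58.4 to 63.0) of 1763 cells and 50.8% (49.1 to 52.5) of 3402 cells, and at P8 44.3% (42.1 to 46.5) of 2007 cells and 32.4% (31.0 to 33.9) of 3956 cells. In the cells without EC markers, where Hey1 is low, the shares were 4.35%, 6.29% and 3.75%. Hey1 was thus detected more often in cells with Dll4 in each of these sorted libraries, beyond counting error. In the whole lungs the shares were 55.4% (49.9 to 60.85) and 46.1% (42.8 to 49.4) in the library labelled null, and 45.2% (37.0 to 53.7) and 40.3% (35.2 to 45.6) with overlapping intervals in the library labelled control. Notch1 was also found more often in sorted cells with Dll4, in 28.2% and 24.8% with overlapping intervals at E15.5, 43.0% and 33.9% at E18.5, and 35.8% and 31.9% at P8. Split by Jag1 in place of Dll4, the Hey1 shares of cells with and without it were 36.85% (34.2 to 39.6) and 22.6% (21.4 to 23.9) at E15.5, 52.3% (48.5 to 56.0) and 54.5% (53.0 to 56.0) at E18.5, and 44.55% (38.9 to 50.35) and 36.0% (34.7 to 37.3) at P8, so the E15.5 gap was wider than with Dll4 and the E18.5 intervals overlapped. The split by Dll4 gave Hes1 shares of 38.0% and 37.0%, 45.55% and 46.6%, and 54.8% and 56.4%, with overlapping intervals. Split by Jag1, the Hes1 shares at E18.5 were 39.5% (35.9 to 43.2) of cells with it and 47.3% (45.8 to 48.8) of those without. At E15.5 they were 35.5% and 37.65% and at P8 52.15% and 56.1%, with overlapping intervals, which also overlapped in both whole lungs. Jag2 was found in 22.1% and 28.1% of cells with a Jag1 UMI before birth and in 13.9% and 16.3% of those without, and at P8 in 12.2% (8.75 to 16.4) and 9.03% (8.29 to 9.81), where the intervals overlapped. The shares of Jag2 in the cells without EC markers were 0.322%, 1.75% and 1.25%. The cells of a library share 1 source, so these shares describe the libraries. The exclusive Gja4 group was also mixed in makeup, with the Gpihbp1 levels given above. In order of age, 28.5%, 5.49% and 7.61% of its cells were cycling and 2.54%, 10.2% and 8.97% were Scrublet calls. The part of this mixture in the shares was not tested.

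Over the 15 profiles of 5 exclusive groups in 3 libraries, Pearson correlations of log2 CPM described which genes moved alike. The profiles share libraries and neighbouring cells, and the coefficients carry no test. Among the members the highest were 0.925 for Notch1 with Notch4, 0.906 for Notch3 with Heyl, 0.885 for Dll4 with Notch1, 0.828 for Dll4 with Hes1 and 0.813 for Hey1 with Notch1. The lowest were -0.452 for Notch3 with Hes1 and -0.398 for Jag1 with Hes1. Without the profile of 8 Car4 cells at E15.5 these were -0.752 and -0.504, Heyl with Hes1 went from -0.346 to -0.598, and Dll4 with Hes1 was at 0.743. The nearest genes outside the members were Oaz2 (0.981), AW011738 (0.965) and Nfe2l2 (0.962) for Dll4, Synpo (0.966), Txnrd3 (0.959) and S100a4 (0.945) for Jag1, and Efna1 (0.938), Clcf1 (0.92) and Rgs3 (0.919) for Hey1. For Heyl they were Lztfl1 (0.953) and the contractile genes Tpm2 (0.946) and Tagln (0.945). Heyl and Notch3 were near 1 CPM in most of these profiles. The profiles kept the ECs with UMIs of other classes, which made up 31.3%, 14.3% and 10.3% of the Eln groups at E15.5, E18.5 and P8. The part of such cells in these coefficients was not tested.

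In the whole lungs, where no sort had been applied, the members were spread over several classes of cell. Cells were clustered with the members and the wider list left out, and clusters were named from markers with names ending in -like. Among ECs only the distal arterial cluster took a name, and the clusters closest to capillary and lymphatic ECs stayed unnamed. In the named cluster Stmn2, Cxcl12 and Gja4 of the distal arterial markers were among the leading genes. So were Fbln2, a proximal arterial marker, Vwf, a venous marker, and Ptprb, a general capillary marker. No cluster was named proximal arterial, and whether the named cluster also held such ECs was not tested. Cxcl12, which helped to give the name, stood at 4.24 CPM in ECs of the library labelled control. Notch1, Notch4, Dll4, Jag1, Jag2 and Hey1 had their highest level in the endothelial class in both libraries. Jag1 in the library labelled control was, however, level within counting error between endothelium (34.8 CPM, 31.9 to 37.85) and epithelium (33.8 CPM, 30.8 to 37.0). The share of all genes that were highest in the endothelial class was not counted, so this is a description. Notch2 was highest in immune cells, at 48.9 CPM in the library labelled control and 49.6 CPM in the library labelled null. Notch3 at 45.6 and 41.7 CPM and Heyl at 23.5 and 32.1 CPM were highest in mesenchyme. Hes1 stood at 301.4 and 322.4 CPM in epithelium and 295.4 and 293.8 CPM in endothelium, with overlapping intervals in the library labelled control, and by the mean of the cells' own CPM it was the higher in endothelium (302.0 against 296.9 CPM and 312.3 against 308.2 CPM).

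Within these classes single types stood out, and values are given for the library labelled control and then the library labelled null. Dll4 reached 174.8 and 174.0 CPM in the distal arterial EC-like cells (375 and 935 cells), and Jag1 142.9 and 175.1 CPM. Jag1 was also present at 98.4 and 102.1 CPM in the ciliated-like cells of the airway (102 and 100 cells), where Jag2 reached 28.4 and 33.2 CPM. Notch1 stood at 232.6 and 250.8 CPM in the distal arterial EC-like and at 100.8 and 86.0 CPM in the pericyte-like cells (278 and 303 cells). Pericyte-like cells held the highest Notch3 of all named types, at 333.9 and 253.9 CPM, and the highest Heyl, at 172.9 and 184.6 CPM. The adventitial fibroblast-like cells came next, with 83.7 and 69.0 CPM of Notch3 and 57.0 and 65.9 CPM of Heyl. Of the leading genes of the pericyte-like cluster, Higd1b and Cox4i2 were pericyte markers. Timp4, Ebf1, Map3k7cl, Gucy1a1, Myl7, Tnnt2, Rgs7bp and Hspb2 were not on that list. Its cycling markers had a mean log2 ratio of 0.48 to all other cells, against -3.84 in the smooth muscle-like cluster. The part of other or cycling cells in its values was not tested. The smooth muscle-like cells (117 and 102) held 8.97 and 12.1 CPM of Notch3, and their Heyl was 1.12 CPM (0.0284 to 6.25), a single UMI, and 0 CPM, which allows up to 4.05 CPM. Actc1, Actg2, Chrm2, Cnn1 and Des led this cluster. The marker list does not part vascular from airway muscle, and no cluster was named as vascular muscle. Whether these values hold for the vascular coat was therefore not tested. In a clustering from another seed, run after the data were examined, the smooth muscle-like cluster took in more cells (261 and 485) and held 9.80 and 12.7 CPM of Notch3 and 1.55 and 0.695 CPM of Heyl, against 330.9 and 259.4 CPM and 173.5 and 188.5 CPM in the pericyte-like cells. Pericyte-like cells further held 56.1 and 45.1 CPM of Hey2, 174.5 and 162.6 CPM of Nrarp and 61.1 and 51.3 CPM of Notch2. Hes1 was highest in the airway secretory-like cells, at 650.7 and 651.5 CPM in 156 and 141 cells. It stood at 318.0 and 265.9 CPM in the distal arterial EC-like and 276.2 and 289.1 CPM in the pericyte-like cells.

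**Figure D4:**
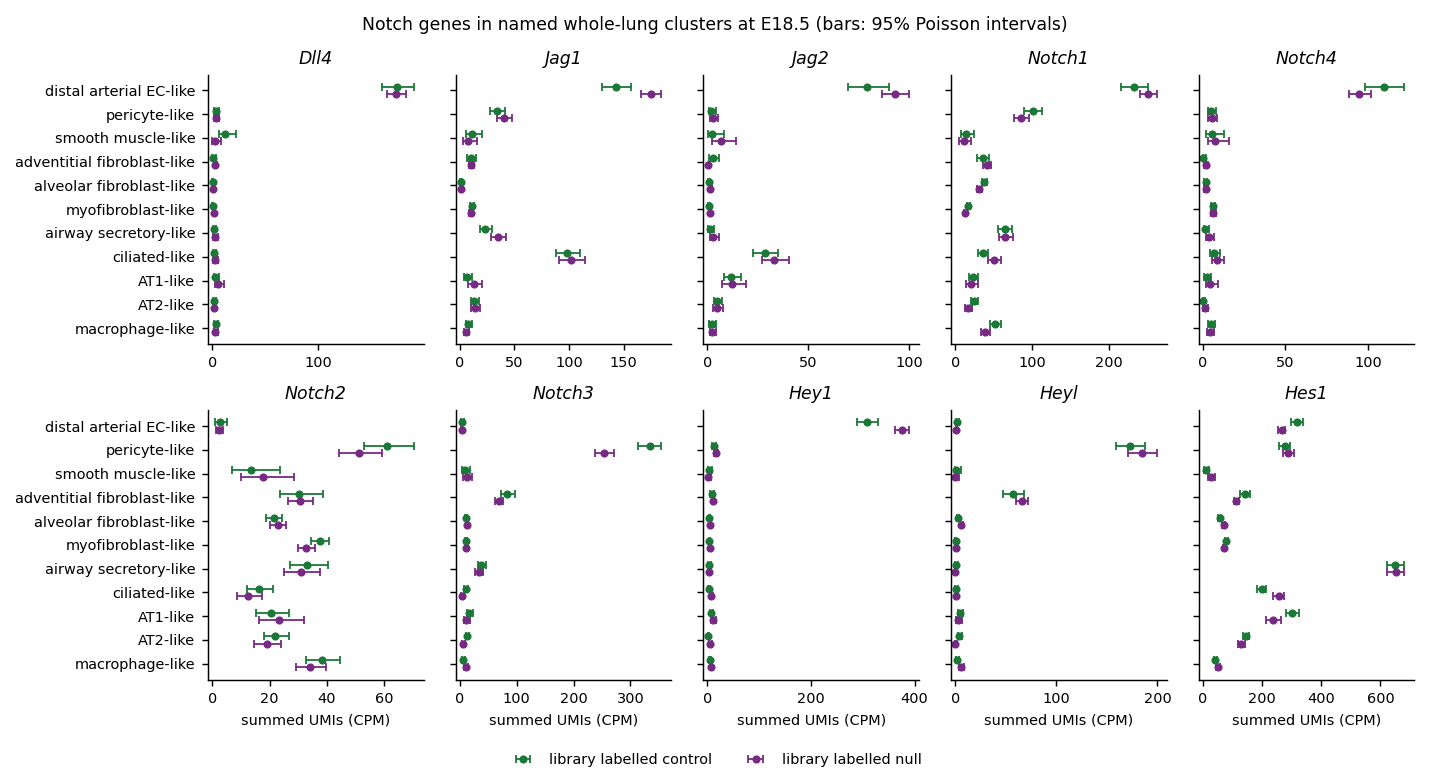
Levels of the 10 Notch pathway genes in CPM in 11 named cell types of the whole E18.5 lungs, for the library labelled control and the library labelled null, with exact 95% Poisson intervals. Notch3 and Heyl are highest in pericyte-like cells, Dll4, Jag2, Notch1, Notch4 and Hey1 in distal arterial EC-like cells, and Hes1 in airway secretory-like cells, in both libraries.

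Between the ECs of both whole lungs, none of the 7 genes tested passed 2-fold in either direction. Of 8555 genes, 0.234% were higher and 0.479% lower in the library labelled null, so this count does not set the members apart. The largest log2 ratio of that library over the one labelled control was 0.79 (0.67 to 0.93) for Jag1, with 53.8 and 30.9 CPM. Hey1 followed with 198 and 153 CPM and 0.38 (0.32 to 0.44), and the others lay between -0.14 for Notch4 and 0.22 for Jag2. The authors also deposited values adjusted with SoupX, which removed 18.5% of the UMIs of the library labelled null and 40.0% of the other. On these values the ratio was 0.62 for Jag1, -0.01 for Hey1, -0.47 for Dll4 and -0.48 for Notch4. Only Jag1 of the 7 therefore kept a ratio above 0 on both scales by more than 0.1.

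The makeup of the ECs moved with this Jag1 difference. In the library labelled null, 48.8% of ECs were over the Gja4 limit and 13.4% over the Eln limit, against 29.3% and 9.99% in the library labelled control. Jag1 was 141.8 and 75.9 CPM over the Eln limit (log2 ratio 0.90, 0.70 to 1.11), and 70.8% and 77.2% of these cells carried UMIs of other classes. In the exclusive Gja4 group it was 52.6 CPM (48.7 to 56.7) and 53.6 CPM (47.2 to 60.5), and in the exclusive Gpihbp1 group 10.1 and 10.3 CPM, so it was alike there within counting error. It was higher in the library labelled null, beyond counting error, in all ECs over the Gja4 limit (0.28, 0.13 to 0.43), over the Gpihbp1 limit (0.36, 0.14 to 0.61) and in the distal arterial EC-like cells (0.29, 0.14 to 0.45). On the SoupX-adjusted values these ratios were -0.08, 0.62 and -0.11. With 1 library per label, genotype and lung cannot be told apart.

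**Figure D5:**
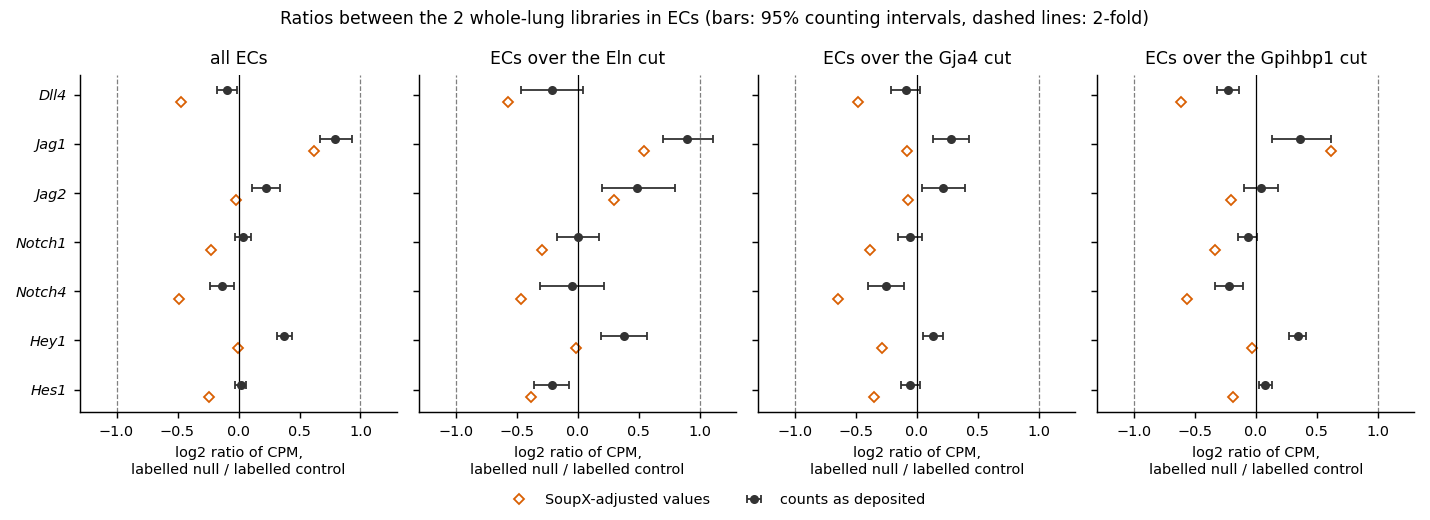
Log2 ratios of CPM in whole-lung ECs, library labelled null over library labelled control, for all ECs and those over the Eln, Gja4 and Gpihbp1 limits, from the counts with 95% counting intervals and from the SoupX-adjusted values (diamonds). Jag1 lies above 0 on both scales in all ECs and over the Eln and Gpihbp1 limits, and Hey1 in all ECs is at 0.38 on counts and at -0.01 on the adjusted values.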

How the data were processed

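The authors made 10x 3′ (v3) libraries, aligned the reads to mm10 with Cell Ranger (3.1 in the methods, 3.1.0 or 3.0.2 in the headers of the tables) and deposited raw UMI counts for each gene in each cell. Beside these the authors deposited expected counts for both whole lungs, in which SoupX had subtracted free RNA, so that they need not be whole. Samples were grouped by their labels.

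The study's own cell filter was applied (mitochondrial share of 0.5% to 10%, no fewer than 700 genes). ECs held at least 2 UMIs of Pecam1 and Cdh5. Summed UMIs were expressed as CPM, with 95% intervals from the exact Poisson distribution. A pseudocount of 0.5 CPM was added for log2 ratios, which carry exact conditional binomial intervals, and shares carry Clopper-Pearson intervals. Depth sets the width of the intervals, which cover counting error only. A gene was called at 2-fold or more, in the same direction in every library of the comparison, among genes with a mean of at least 10 CPM. The whole lungs were clustered together from analytic Pearson residuals (theta of 100, 3000 variable genes, 20 components, 20 neighbours, Leiden, resolution 0.8, seed 1) with scanpy 1.11.5, numpy 2.4.6, scipy 1.17.1 and pandas 2.3.3 under Python 3.11.15. The scoring limits for cluster names were chosen after the clusters had been seen. Doublets were kept. Scrublet calls were removed as an alternative, and where its own threshold called 0% (sorted E18.5 and P8) the highest scores at the expected rate were taken, 8.68% and 7.44% of cells. The scripts were tested on simulated data.

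All 10 members are named, and Hey2, Rbpj, Mfng and Nrarp whatever their values. Other pathway genes are named where called, and for Dll4, Jag1, Hey1 and Heyl the 3 genes most like them over 15 profiles. The members, lists and tests were chosen with earlier results of these data known. The comparison with cells without EC markers, the time course within groups, with and without cycling cells, the pericyte-like and smooth muscle-like cells under other clusterings and the Eln values without cells of mixed class were added after the data were examined. Alternatives varied the EC and marker limits, the cell filters, the depth, the pseudocount, doublets, cycling cells, cells with UMIs of other classes, the grouping, the clustering and the use of the SoupX-adjusted values.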

Additional observations from a re-analysis of the deposited data

Results flagged for a closer look

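For 3 pairs of target gene and marker limit, the log2 ratio of the ECs over the limit to the other ECs pointed in different directions at different time points, with intervals past 0 in each direction. With 1 library per time point, none of these differences between time points was tested. Hey1 at the Eln limit had a ratio of 0.0746 (interval 0.00159 to 0.148) in E15.5 ECs, -1.15 (-1.24 to -1.06) in E18.5 ECs and 0.286 (0.193 to 0.378) in P8 ECs. Of the sorted libraries from E15.5 on, Hey1 was thus lower in the Eln group at E18.5 alone, and in the whole lungs of that age its ratios were -0.83 (-1.005 to -0.661) and -0.86 (-0.97 to -0.76) in the libraries labelled control and null. Of those whole-lung cells, 77.2% and 70.8% carried UMIs of other classes and 59.4% and 53.8% were Scrublet calls, and their mesenchymal markers summed to 2311 and 2730 CPM against 489.1 and 695.0 CPM in all ECs. The part of such cells in these ratios was not tested. Hes1 at the Gja4 limit had 0.412 (0.368 to 0.458), -0.39 (-0.426 to -0.354) and 0.0429 (0.00018 to 0.086) in order of age. Hes1 at the Gpihbp1 limit had -0.0624 (-0.101 to -0.0243), 0.289 (0.255 to 0.324) and, with an interval that includes 0, 0.0297 (-0.0111 to 0.0707). Hes1 at the Car4 limit also changed direction, with -0.34 (-0.92 to 0.18), 0.54 (0.49 to 0.59) and 0.04 (0.006 to 0.073). Its E15.5 value rests on 10 ECs over the limit and has an interval that includes 0. In the other E18.5 libraries, those of the whole lungs labelled control and null, Hes1 had ratios of 0.12 (0.03 to 0.20) and 0.03 (-0.03 to 0.09) at the Gja4 limit, and -0.01 (-0.11 to 0.08) and 0.24 (0.17 to 0.31) at the Gpihbp1 limit, so the negative Gja4 ratio was not seen there.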

How the results depend on the processing

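Jag1 kept its direction at these limits and this step under every alternative run, with mean log2 ratios of 2.16 to 2.78 at the Eln limit, -3.04 to -1.71 at the Gpihbp1 limit and -1.69 to -1.44 from E18.5 to P8. From E15.5 to E18.5 the ratio ran from 1.13 to 1.42 for Dll4 and from 1.01 to 1.39 for Hey1. No called mean ratio of the members at a marker limit or between time points changed sign. In single libraries, Jag1 and Hey1 turned higher at E15.5 in the exclusive Car4 group of 8 cells (30.8 against 22.9 CPM and 41.0 against 21.2 CPM), and the comparison of ECs with cells without EC markers was run under no alternative. Uncalled ratios could move far, such as Hey1 at the Eln limit (-0.46 to 0.79) and Dll4 at the Car4 limit (-2.96 to -0.59). Of the counts recomputed under alternatives, 279 stayed within 1.5 times the first count and 21 did not, and of the members 194 log2 ratios moved beyond counting error and 546 did not, and 358 levels moved beyond it and 442 did not. Among the members, 2 genes (Jag1 and Jag2) in place of 1 passed 2-fold downwards from E18.5 to P8 in thinned cells, 1 (Hey1) in place of 0 passed it at the Gja4 limit without Scrublet calls, and 0 in place of 2 passed it at the Car4 limit in exclusive groups against ECs over no limit, where both genes stayed over 2-fold lower at E18.5 and P8 and the 8 cells at E15.5 ended the call. The remaining moves were in the wider list. At the Eln limit, 2 genes (Ccnd1 and Maml3) in place of 1 were lower without ECs with UMIs of other classes, in thinned cells and without Scrublet calls, and 0 in exclusive groups. At the Car4 limit, 1 gene (Ccnd1) in place of 0 was higher without cycling cells, in thinned cells and over E18.5 and P8 alone (chosen after seeing the data), and 0 in place of 1 were lower over E18.5 and P8 alone, without ECs with UMIs of other classes and in exclusive groups, which also gave 0 in place of 1 in each direction at the Gpihbp1 limit. From E18.5 to P8, 0 in place of 2 were lower without ECs with UMIs of other classes, by the mean of the cells' own CPM and in thinned cells, since Dlk1 and Mfap5 then fell under the minimum mean (log2 ratios of -4.72 to -3.10 and -1.61 to -1.51). A pseudocount of 5 CPM left 1 gene higher (Gata2, in place of 4) and 1 lower (Myc, in place of 3) from E15.5 to E18.5. A larger pseudocount shrinks each ratio, and most for low genes. Efnb2 and Numb, which were not low and lost their call, had lain just over 2-fold. The SoupX-adjusted values gave 1 gene higher (Mfap2) in place of 0 in the library labelled null. Other causes were not tested. No paired analysis was possible because each condition has 1 library. At E13.5, 210 ECs limit what depth can show.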
